A study of Homo sapiens with 66 samples.

Results

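Binding of the hypoxia-inducible factors (HIF) was examined at 9 genes whose enzymes hydroxylate collagen or cross-link it. These were the prolyl hydroxylase subunits P4HA1, P4HA2 and P4HA3, the lysyl hydroxylases PLOD1 and PLOD2, and the lysyl oxidases LOX, LOXL1, LOXL2 and LOXL4. Binding was read from 50 peak lists, each from 1 chromatin immunoprecipitation sequencing (ChIP-seq) library. A peak was given to a gene when its centre lay in the gene body, or within 50 kb of an annotated transcription start site (TSS) of the gene, and no other gene was nearer. By this rule 296 of 131131 peaks on chromosomes 1 to 22, X and Y belonged to the 9 genes. Overlapping peaks of all lists were merged into 50169 sites, of which 18 belonged to the 9 genes. A site is described as called in a library when that library's list held a peak in it.

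HIF is a dimer of an oxygen-regulated α subunit, HIF-1α or HIF-2α, and the constitutive partner HIF-1β, and it binds a short DNA motif, the hypoxia response element (HRE). Collagen chains are modified in the endoplasmic reticulum, where prolyl hydroxylases make the hydroxyproline that stabilises the triple helix and lysyl hydroxylases make the hydroxylysine on which strong cross-links are built. Outside the cell, the copper-dependent lysyl oxidases oxidise lysine and hydroxylysine so that neighbouring chains can be joined. Several of these genes are textbook hypoxia targets, and stiffening of the matrix by cross-linked collagen is a known feature of fibrotic kidney and of tumours.

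The libraries fell into 25 groups of 2. HKC8 is a human proximal tubule kidney line, and in the severity and duration experiment it was kept at 3% oxygen for 6 h or at 0.5% for 6 h, 16 h or 48 h, with antibodies to each of the 3 subunits (24 libraries). The knockout experiment (14 libraries, 0.5% oxygen, 16 h) held wild-type (WT) HKC8 and HKC8 in which CRISPR had disrupted either α subunit, named HIF-1α KO and HIF-2α KO. The subunit knocked out was not pulled down in its own knockout. Each knockout was a single clone, so the loss of the gene and the history of the clone cannot be told apart. RCC4, a renal carcinoma line without functional VHL, was kept in normoxia, and HepG2, a liver cancer line, in 0.5% oxygen for 16 h (6 libraries each). The lists hold no expression values, so the lines could not be checked against marker genes.

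Read depth is unknown from peak lists, and the number of peaks per list ran from 237 to 1793 in the severity and duration experiment, from 915 to 8279 in the knockout experiment, and from 911 to 6851 in RCC4 and HepG2. Each list held 2 to 14 peaks of the 9 genes. The HepG2 α libraries stood apart from their labels. The share of peaks within 1 kb of a protein-coding TSS was 8.35% and 30.5% in the HIF-1α replicates and 32.3% and 10.1% in the HIF-2α replicates. HIF-1α replicate 2 shared 49.9% of the sites of the shorter list with HIF-2α replicate 1, against 34.8% between the HIF-1α replicates and 25.9% between the HIF-2α replicates. The labels were kept, and comparisons of the α subunits are given with and without HepG2.

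Sequences are shown for the 6 sites of P4HA1, P4HA2, PLOD2 and LOX that were called with HIF-1β in both replicates of a group, so that the HRE cores near their centres can be read. The sequences are given on the plus strand of GRCh37, 5′ to 3′, with the HRE core (ACGTG or GCGTG, or CACGT or CACGC for the other strand) in capitals. The first 5 are stretches of 30 bases round the cores within 100 bp of the centre of the PLOD2, P4HA1 and LOX promoter sites, and the others are the 200 bases round the centre of the P4HA2 promoter site and of the sites 5.6 and 2.7 kb upstream of PLOD2.
PLOD2 promoter, chr3:145879101-145879130: cctcctgggcccCACGTctggactgtttgc
PLOD2 promoter, chr3:145879161-145879190: gcggctACGTGtggaggctCACGCagcgct
P4HA1 promoter, chr10:74856694-74856723: gcagccctcgctACGTGagctcgatcacac
LOX promoter, chr5:121413980-121414009: taaactttctggCACGTttgcaaagttaca
LOX promoter, chr5:121414045-121414074: gttCACGTaatgcgattggaaACGTGcaag
P4HA2 promoter, chr5:131563625-131563824: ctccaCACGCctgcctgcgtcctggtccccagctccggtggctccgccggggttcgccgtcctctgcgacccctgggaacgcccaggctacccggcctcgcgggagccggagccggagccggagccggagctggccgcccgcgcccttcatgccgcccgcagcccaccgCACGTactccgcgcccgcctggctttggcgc
PLOD2 −5.6 kb, chr3:145884504-145884703: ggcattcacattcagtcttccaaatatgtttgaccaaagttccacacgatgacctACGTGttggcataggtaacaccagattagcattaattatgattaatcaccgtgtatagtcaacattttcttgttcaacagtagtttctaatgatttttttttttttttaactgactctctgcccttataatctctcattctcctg
PLOD2 −2.7 kb, chr3:145881522-145881721: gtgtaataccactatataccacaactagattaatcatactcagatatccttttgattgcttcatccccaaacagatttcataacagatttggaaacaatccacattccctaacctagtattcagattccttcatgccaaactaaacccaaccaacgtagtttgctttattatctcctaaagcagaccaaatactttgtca

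An HRE core lay within 100 bp of the site centre at 9 of the 18 sites, and at 8 of the 11 sites that were called in both replicates of a group. Over all 50169 merged sites the share was 33.8%, and over the 9315 called in both replicates of a group it was 59.7%. The PLOD2 and LOX promoters each held 3 cores in this window, the P4HA2 promoter 2 and the P4HA1 promoter 1, with a core on each strand counted separately where they overlap. Of the LOXL2 sites, the one at −17.5 kb held 2, those at +58.7 and +40.8 kb 1 each and those at +47.9 and −7.2 kb none. The site 2.7 kb upstream of PLOD2 held none, its nearest core being 395 bp from the centre. The AP-1 motif (TGAGTCA or TGACTCA) lay within 100 bp of the centre at 1 of the 18 sites, the LOXL2 site 58.7 kb downstream of the start, against 7.96% of all merged sites. A match is a description of the letters and not of binding.

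Sites called in both replicates of at least 1 group were found at 5 of the 9 genes, P4HA1, P4HA2, PLOD2, LOX and LOXL2. Such a site was assigned to 18.5% of 20136 protein-coding genes, and to 36.7% of the 4823 that span at least 75 kb. Of the 18 sites, 11 were of this kind, against 18.6% of all merged sites, and 5 were called in 1 library only, against 71.0%. The other 4 genes had no such site. In single groups, 2 to 5 of the 9 genes had a site called in both replicates, and the share of protein-coding genes with one ran from 0.119% to 10.8%.

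**Figure D1:**
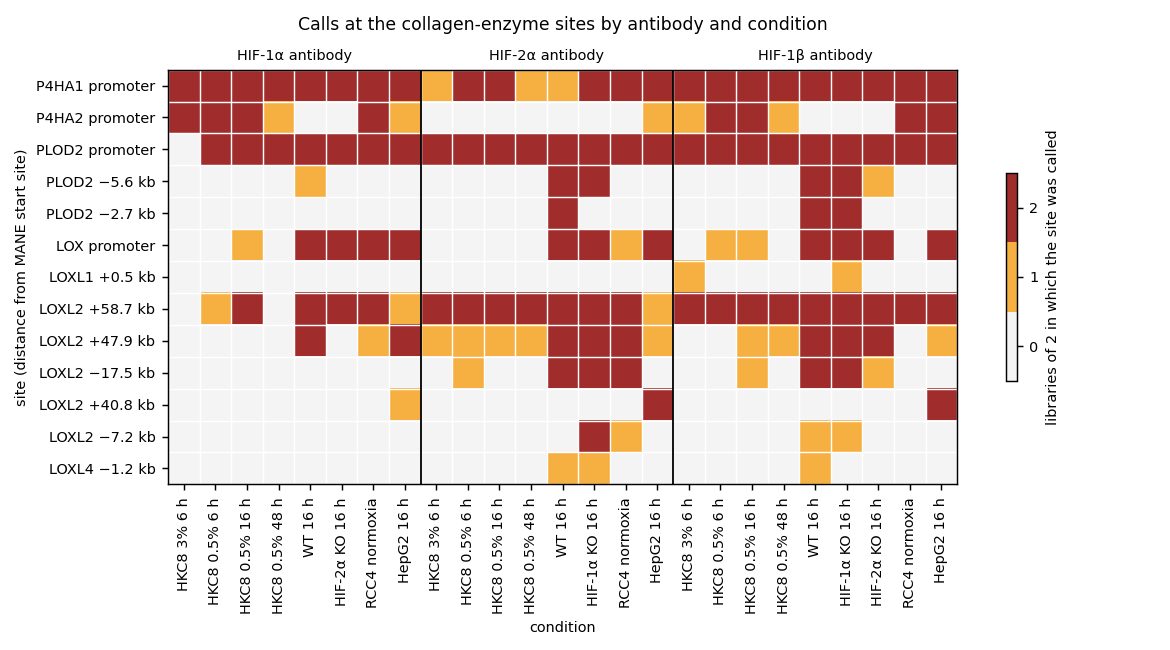
Calls at the 13 sites found in more than 1 library (rows, with distance from the start site of the MANE transcript) in the 25 groups (columns, by antibody and condition); colour gives the number of libraries of 2 with a call. The P4HA1 and PLOD2 promoters and the LOXL2 site at +58.7 kb are called across most columns, and the P4HA2 promoter is called mainly with HIF-1α and HIF-1β.

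P4HA1 encodes the main catalytic α subunit of collagen prolyl hydroxylase. Its leading site (chr10:74855055-74857437, centre 18 bp upstream of the TSS of the MANE transcript, the reference transcript of the gene) was called in 47 of the 50 libraries, that is with HIF-1α in 16 of 16, with HIF-2α in 13 of 16 and with HIF-1β in 18 of 18. Peaks were ranked by score within each list, with a percentile of 100 for the highest. Where a list held several peaks in a site, the highest percentile was used. The median percentile of the P4HA1 promoter was 98.3 with HIF-1α (0.915 to 99.7), 93.5 with HIF-2α (28.5 to 100.0) and 96.6 with HIF-1β (78.1 to 99.7). The lowest value came from 1 HIF-1α library in 3% oxygen, where the peak ranked 650 of 656, while the other replicate had it at rank 18 of 1223. The 3 libraries without a call were all HIF-2α, 1 replicate each of HKC8 in 3% oxygen for 6 h, of HKC8 in 0.5% oxygen for 48 h and of WT cells of the knockout experiment. The second P4HA1 site, in an intron 62.2 kb downstream, was called in 1 library.

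PLOD2 encodes the lysyl hydroxylase that acts on the collagen telopeptides. Its promoter site (chr3:145877977-145880190, centre 155 bp upstream of the MANE TSS) was called in 48 libraries, the most of the 18 sites, with 14 of 16 for HIF-1α, 16 of 16 for HIF-2α and 18 of 18 for HIF-1β. A call in at least 40 of the 50 libraries was made at 71 of the 50169 sites (0.142%), and 0.204% of protein-coding genes had such a site. Of the 9 genes 3 had one, P4HA1, PLOD2 and LOXL2. The median percentile of the PLOD2 promoter was 97.3 with HIF-1α (94.6 to 99.6), 93.2 with HIF-2α (21.9 to 99.5) and 97.1 with HIF-1β (75.3 to 99.5). Its 2 missing calls were both HIF-1α libraries of 3% oxygen.

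The sites elsewhere whose percentiles, with 0 for no call, were most like those of the PLOD2 promoter over the 50 libraries are given as a description. Pearson's r was 0.911 for a site on chromosome 2 (chr2:85172696-85174680, 20467 bp from a TSS of the lncRNA ENSG00000287625). It was 0.698 for a site on chromosome 9 (chr9:93954802-93957454, at the lncRNA ENSG00000289123) and 0.697 for one on chromosome 3 (chr3:5018413-5022764, at BHLHE40-AS1). The points share libraries and list lengths. The low values of the PLOD2 promoter were the 0 given where it was not called and 21.9 in a HIF-2α library at 48 h. All its other percentiles were at least 75.3, so these few libraries weigh heavily in r.

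PLOD2 had 2 further sites upstream that were called only in the knockout experiment, whose lists ran from 915 to 8279 peaks. The site 5.6 kb upstream (chr3:145884001-145885295) was called in 10 of those 14 libraries. Its percentiles were 49.2 and 82.7 with HIF-1β and 66.7 and 80.9 with HIF-2α in WT cells, and 1.23 in 1 of 2 HIF-1α libraries. The site 2.7 kb upstream (chr3:145881139-145882094, 110 bp from the start of a longer transcript) was called in 6, with percentiles of 0.622 to 24.9, so it lay in the lower part of every list that held it. Another site, 138.8 kb downstream of the MANE TSS and 48781 bp from the nearest annotated PLOD2 TSS, was called in 1 library and was the one just inside the limit of 50 kb. Widening the limit to 100 kb added 1 site over the 9 genes.

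LOXL2, a lysyl oxidase known for a role in tumour invasion, had 5 sites and none within 1 kb of its MANE TSS. Each of the 5 was called in both replicates of at least 1 group. The leading one (chr8:23200553-23205301) lay in an intron 58.7 kb downstream of the MANE TSS and 4268 bp upstream of another annotated start. It was called in 43 libraries, with HIF-1α in 10 of 16, HIF-2α in 15 of 16 and HIF-1β in 18 of 18. With HIF-2α its median percentile was 98.9 (39.6 to 99.7), against 92.3 (37.7 to 96.0) in the HIF-1α libraries that called it and 94.8 (58.1 to 99.2) with HIF-1β. The ranges overlap. With HIF-2α in HIF-1α KO cells its percentiles were 99.6 and 99.5, where its score of 3100 was shared with other peaks of the list, so that its place among them is not resolved.

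The second intronic LOXL2 site, 47.9 kb downstream (chr8:23210078-23214690), was called in 25 libraries, with HIF-1α in 5, HIF-2α in 11 and HIF-1β in 9. It joins separate peaks, so calls in different libraries need not lie at the same place. HepG2 HIF-2α replicate 2, for example, called it only at chr8:23210209-23210902. The site 17.5 kb upstream of the MANE TSS (chr8:23278021-23280239) was called in 13 libraries, with HIF-2α in 7, HIF-1β in 6 and HIF-1α in 0 of 16. Its centre lay inside the body of the gene, which has longer transcripts, 3717 bp downstream of another annotated LOXL2 start. In WT cells of the knockout experiment its HIF-2α percentiles were 96.0 and 97.1. The site 7.2 kb upstream, also inside the gene body, was called in 5 libraries, 3 of HIF-2α and 2 of HIF-1β. The site 40.8 kb downstream (chr8:23220293-23221292) was called in 5 of the 6 HepG2 libraries and in none of the other 44.

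**Figure D2:**
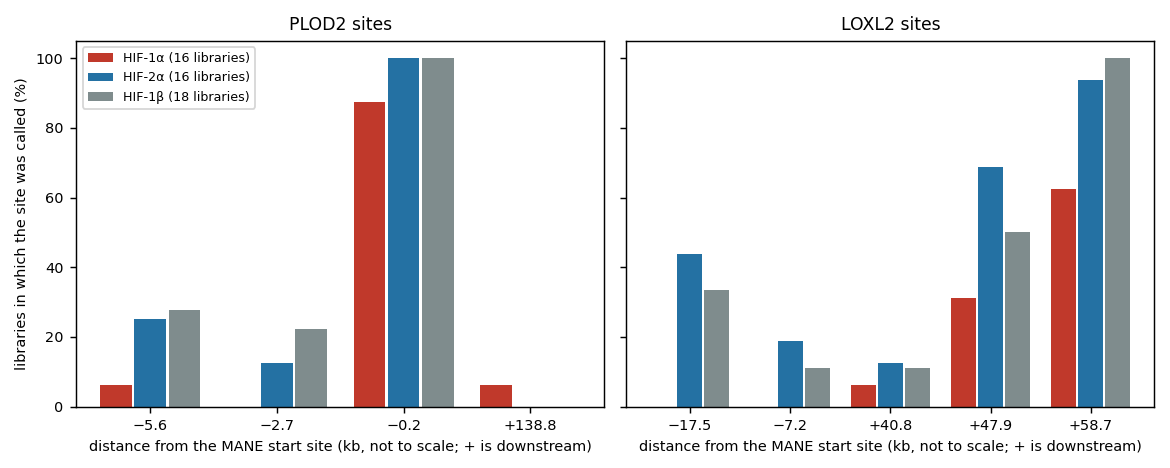
Share of libraries (%) with a call at each PLOD2 and LOXL2 site, by antibody, ordered by distance from the MANE start site. The PLOD2 promoter is called in 14 of 16, 16 of 16 and 18 of 18 libraries, while the LOXL2 calls lie 17.5 and 7.2 kb upstream and 40.8 to 58.7 kb downstream, with no site at the start itself.

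LOX encodes the founding lysyl oxidase. Its promoter site (chr5:121411852-121414779, centre 70 bp upstream of the MANE TSS) was called in 26 libraries, with HIF-1α in 9 of 16, HIF-2α in 7 of 16 and HIF-1β in 10 of 18. It was called in all 14 libraries of the knockout experiment and all 6 of HepG2, but in 3 of the 24 severity and duration libraries and 3 of 6 RCC4 libraries. In RCC4 both HIF-1α libraries (percentiles 97.9 and 84.4) and 1 HIF-2α library (85.2) called it, and neither HIF-1β library did. HKC8 in 0.5% oxygen for 16 h was present in both HKC8 experiments. There the HIF-1β percentiles were 83.8 and 88.1 in the lists of 6199 and 8279 peaks, and in the severity and duration experiment 50.8 in 1 list of 1793 peaks, with no call in the list of 1357. List length moved with these calls, and its part in them was not tested.

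P4HA2, the second prolyl hydroxylase α subunit, was called mainly with HIF-1α and HIF-1β. Its promoter site (chr5:131562258-131564771, centre 179 bp upstream of the MANE TSS and inside the body of the gene, which has longer transcripts) was called in 21 libraries, with HIF-1α in 10 of 16, HIF-2α in 1 of 16 and HIF-1β in 10 of 18. The median percentile was 97.5 with HIF-1α (66.1 to 98.6) and 94.8 with HIF-1β (77.6 to 99.4). The 1 HIF-2α call was HepG2 HIF-2α replicate 1 (percentile 98.7), one of the libraries that stood apart from their labels.

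**Figure D3:**
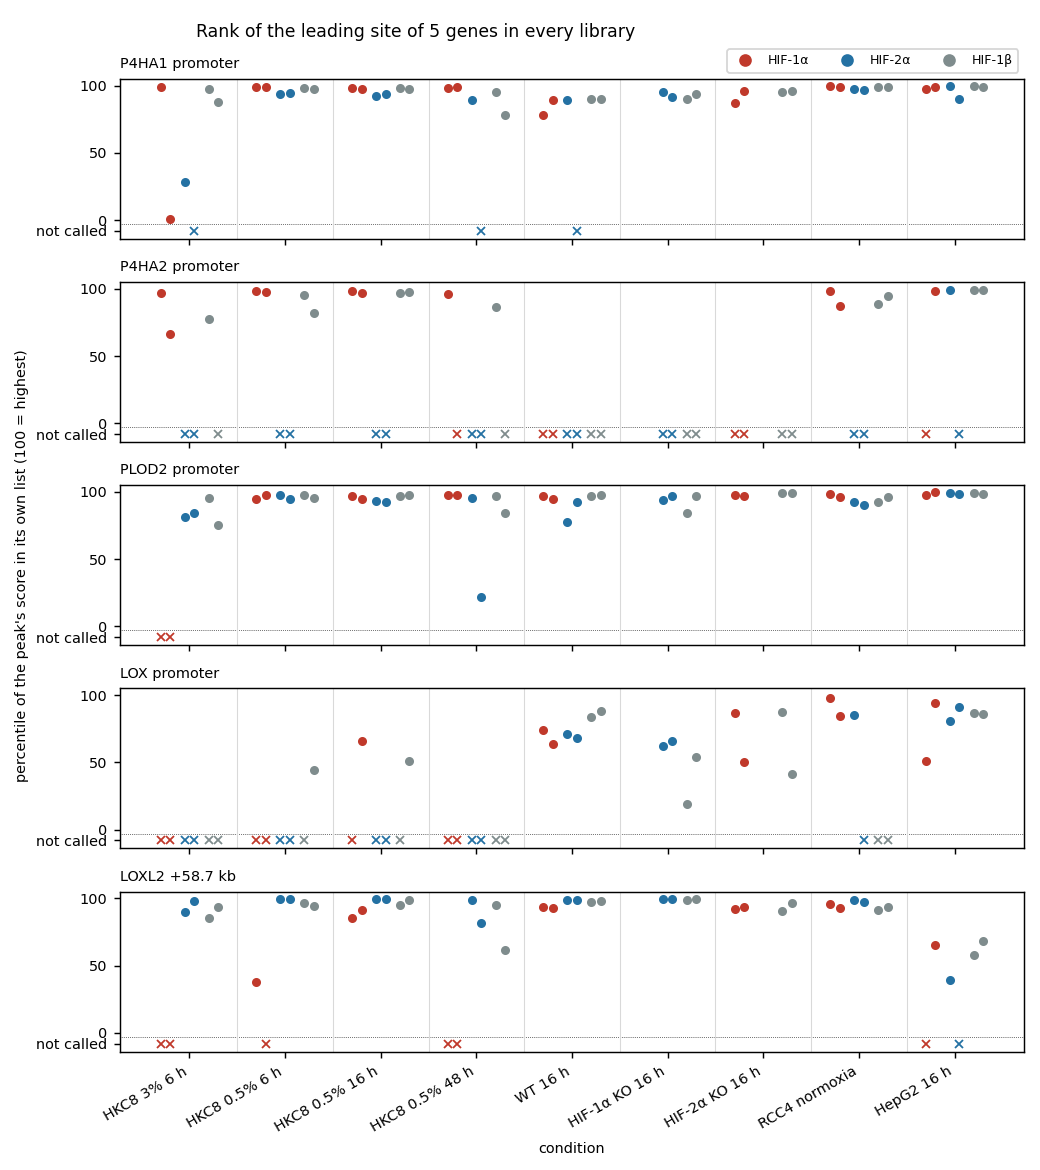
Percentile of the peak's score in its own list (vertical axis, 100 highest) at the leading site of 5 genes in every library, by condition and antibody; crosses mark libraries without a call. P4HA2 has crosses in all 14 knockout-experiment libraries and LOX has points in all 14.

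The P4HA2 promoter was called in 13 of the 24 severity and duration libraries and in 0 of the 14 libraries of the knockout experiment, WT cells included. In HKC8 kept in 0.5% oxygen for 16 h it was called in both HIF-1α libraries (percentiles 98.3 and 96.8) and both HIF-1β libraries (96.8 and 97.4) of the first experiment and in none of the 6 WT libraries of the second, whose HIF-1β lists were longer. Of 814 sites called in both HIF-1β libraries of the first experiment, 21.0% were called in neither WT HIF-1β library of the second. Of 391 sites called in at least 9 of the 24 severity and duration libraries, 31 (7.93%) were called in none of the 14. The 200 bases round the P4HA2 centre held 77.5% G and C. The median was 75.5% over the 31 sites and 59.0% over the other 360, and of the 81 sites with at least 70% G and C 22.2% were among the 31, against 2.65% to 5.19% in the bins below. The PLOD2 promoter, at 70.0%, was called in all 14, and the P4HA1 promoter, at 69.5%, in 13. The part of base composition in the missing calls was not tested.

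**Figure D4:**
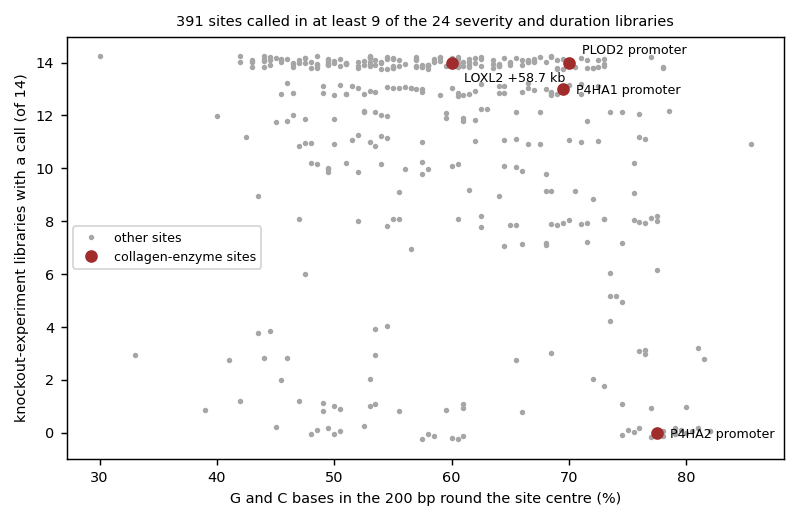
G and C content of the 200 bp round the centre (horizontal axis, %) against the number of the 14 knockout-experiment libraries with a call (vertical axis, with small vertical jitter for the grey points) for the 391 sites called in at least 9 of the 24 severity and duration libraries. The P4HA2 promoter lies at 77.5% with 0 calls, and the PLOD2 and P4HA1 promoters at 70.0% and 69.5% with 14 and 13.

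The remaining genes had few calls. LOXL1 had a site in a coding exon, 0.537 kb downstream of the TSS, called with HIF-1β in 2 libraries of different groups, and an intronic site called in 1. LOXL4 had a site 1.17 kb upstream of its TSS (chr10:100028233-100029954) that was called in 3 libraries of the knockout experiment, 2 with HIF-2α and 1 with HIF-1β. P4HA3 and PLOD1 each had 1 site in 1 HIF-1α library. A site not called may lie under the limit of the caller, so these values do not show that HIF was absent.

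A further 18 sites lay in the window of 1 of the 9 genes but nearer to another gene, and were left out by the rule. The one called most often lay 4.7 kb upstream of PLOD1 (chr1:11989226-11990779) and was nearer to KIAA2013. It was called in 37 libraries, with HIF-1α in 13, HIF-2α in 7 and HIF-1β in 17. The next lay 38.2 kb upstream of P4HA2 (chr5:131598927-131607555), was nearer to PDLIM4, and was called in 23.

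To ask whether each α subunit had its own sites, HIF-1α and HIF-2α calls were compared over the 7 conditions with both antibodies, 14 libraries each. The exact permutation test was two-sided, exchanged labels within condition, and was run on all 3302 sites called in at least 4 of the 28 libraries. After Benjamini-Hochberg adjustment over these sites 0 (0%) passed 0.05, while 365 had an unadjusted p under 0.05. Of the 18 sites 7 entered the test, 2 of them with an unadjusted p under 0.05, and the median difference was -14.3 percentage points over the 7 and 0 over all 3302.

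The P4HA2 promoter was called with HIF-1α in 10 of 14 libraries and with HIF-2α in 1 of 14 (exact permutation p = 0.00283, adjusted p = 0.158). Without HepG2 it was called in 9 of 12 and 0 of 12, and the difference passed the threshold (exact permutation p = 0.000772, adjusted p = 0.0472). Without HepG2, 37 of 2264 sites passed (1.63%), 13 of them called more often with HIF-1α (0.574%). P4HA2 was the 1 site of the 18 among them. A difference of at least 9 calls towards HIF-1α was seen at 15 of the 3302 sites.

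Calls at the LOXL2 sites leaned the other way without passing the threshold. The site at +58.7 kb was called with HIF-1α in 8 of 14 libraries and with HIF-2α in 13 of 14 (exact permutation p = 0.0648, adjusted p = 0.438). In the severity and duration experiment it was called in 3 of 8 libraries with HIF-1α and 8 of 8 with HIF-2α. The site at −17.5 kb was called in 0 of 14 and 5 of 14 (exact permutation p = 0.0278, adjusted p = 0.337). The site at +47.9 kb was called in 5 of 14 and 9 of 14 (exact permutation p = 0.219, adjusted p = 0.849). A lead of at least 5 calls for HIF-2α was seen at 8.96% of the tested sites. Without HepG2 the adjusted p from the exact test was 0.200 for the sites at +58.7 and −17.5 kb and 0.274 for that at +47.9 kb. Over all 2264 sites tested without HepG2 the mean difference was -9.80 percentage points, also towards HIF-2α. It is a mean, so it cannot be set against the median of 0 given above for the 3302 sites tested with HepG2. In WT cells the HIF-2α lists held 4537 and 6749 peaks and the HIF-1α lists 1913 and 1535. The part of list length was not tested.

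The P4HA1, PLOD2 and LOX promoters were called with either α subunit. P4HA1 was called with HIF-1α in 14 of 14 libraries and with HIF-2α in 11 of 14 (exact permutation p = 0.25, adjusted p = 0.901), PLOD2 in 12 and 14 (p = 0.333, adjusted p = 0.974) and LOX in 7 and 5 (p = 0.5, adjusted p = 1). By condition, PLOD2 was called in all 4 α libraries in 6 of the 7 conditions and P4HA1 in 4. P4HA2 was called in both HIF-1α and neither HIF-2α library in 4 conditions. HIF-1β was called in at least 1 library of the same condition for all 29 HIF-α calls at P4HA1, all 30 at PLOD2, all 25 at LOXL2 +58.7 kb and all 11 at P4HA2. At LOX this held for 13 of 16, at LOXL2 +47.9 kb for 11 of 16 and at LOXL2 −17.5 kb for 4 of 7. Neither RCC4 HIF-1β library called LOX, LOXL2 +47.9 kb or LOXL2 −17.5 kb. Those HIF-1β lists held 911 and 1305 peaks, against 5680 and 2120 with HIF-1α and 4317 and 2990 with HIF-2α. The part of list length was not tested, and no share over all sites was computed. A missing call does not show that HIF-1β was absent.

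**Figure D5:**
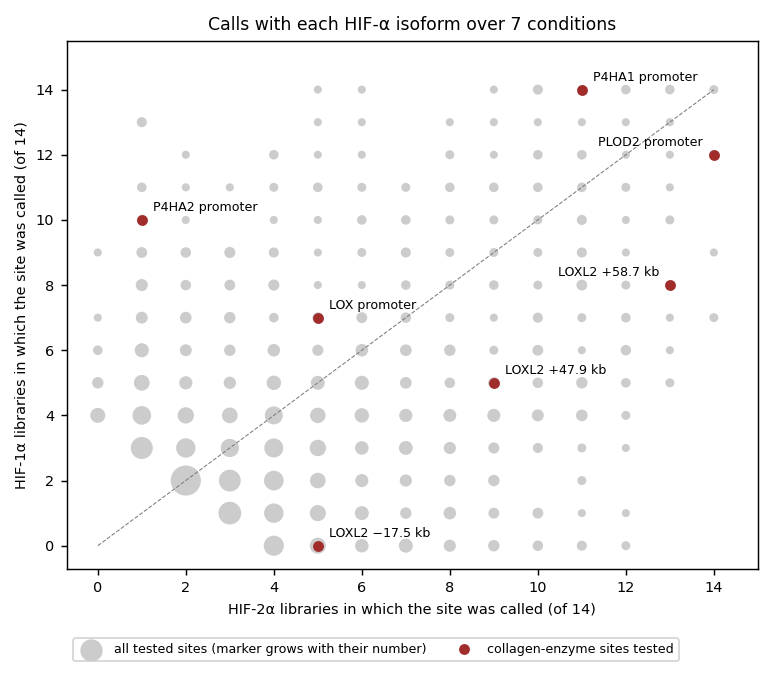
Number of HIF-1α libraries (vertical axis, of 14) against HIF-2α libraries (horizontal axis, of 14) with a call, for the 3302 tested sites (grey, larger where more sites coincide) and the 7 collagen-enzyme sites among them (red). The P4HA2 promoter lies at 10 against 1, the LOXL2 site at −17.5 kb at 0 against 5, and the PLOD2 promoter at 12 against 14.

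The severity and duration comparisons asked whether oxygen or time changed which sites were bound. Each set 6 HKC8 libraries against 6, with labels exchanged within antibody, and could not give an exact permutation p under 0.00926. In 3% oxygen the PLOD2 promoter was called in 0 of 2 HIF-1α libraries, against 2 of 2 in 0.5% oxygen at 6 h, while HIF-2α called it in 2 of 2 in both. Over the 3 antibodies it was called in 6 of 6 libraries in 0.5% and 4 of 6 in 3% oxygen (exact permutation p = 0.333, adjusted p = 1). The P4HA1 promoter was called in 6 and 5, the P4HA2 promoter in 4 and 3 and the LOXL2 site at +58.7 kb in 5 and 4. At the P4HA2 promoter the HIF-1α percentiles were 98.1 and 97.8 in 0.5% oxygen, in lists of 1496 and 1319 peaks, and 97.1 and 66.1 in 3% oxygen, in lists of 1223 and 656. The first 3 values lie close together, and the low one came from the shortest list. The LOXL2 site at +58.7 kb was called with HIF-2α in both, at 99.7 and 99.5 in 0.5% and at 90.1 and 98.2 in 3% oxygen.

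The P4HA1 and PLOD2 promoters were called in 6 of 6 libraries at both 6 and 16 h. At 48 h P4HA1 was called in 5, PLOD2 in 6, P4HA2 in 2 (4 at 6 h) and LOXL2 +58.7 kb in 4 (5 at 6 h). The second HIF-2α list at 48 h held 237 peaks, the fewest of all, and still had PLOD2 at rank 186 and LOXL2 +58.7 kb at rank 44. Of the 18 sites 4 entered each of these tests. None passed in any of the 3 exact permutation tests, as was the case for all 483, 755 and 495 sites tested (0% each, with 9, 5 and 2 sites at an unadjusted p under 0.05). With a smallest p of 0.00926, 90, 140 and 92 sites would have had to reach it before any could pass, and 1, 1 and 0 did. These tests therefore cannot show that oxygen or time left a site unchanged.

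The knockout experiment asked whether binding of 1 α subunit depended on the other. With 2 libraries against 2 the smallest exact p is 0.33, so the calls are given without a test. With HIF-1α, 5 of the 18 sites were called in both WT libraries and 4 of them, the P4HA1, PLOD2 and LOX promoters and LOXL2 +58.7 kb, in both HIF-2α KO libraries. LOXL2 +47.9 kb, at percentiles of 30.6 and 58.5 in WT, was called in neither. These percentiles belong to different peaks of that merged site, chr8:23211463-23212442 and chr8:23213550-23214298. Over all 1097 sites called in both WT libraries 48.0% were called in both HIF-2α KO libraries. The HIF-1α percentiles at P4HA1 were 78.1 and 89.1 in WT and 87.3 and 95.8 in HIF-2α KO cells, and those at PLOD2 were 96.8 and 94.6 in WT and 98.0 and 97.0 in HIF-2α KO cells. At LOXL2 +58.7 kb they were 93.7 and 92.9 in WT and 91.9 and 93.6 in HIF-2α KO cells. The LOX promoter had HIF-1α percentiles of 74.0 and 64.0 in WT and 86.7 and 50.1 in HIF-2α KO cells. The replicates of the genotypes overlap at P4HA1, LOX and LOXL2 +58.7 kb and not at PLOD2. The HIF-1α lists held 1913 and 1535 peaks in WT and 1271 and 915 in HIF-2α KO cells. The part of list length was not tested.

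With HIF-2α, 7 sites were called in both WT libraries, and 6 of them, all but PLOD2 −2.7 kb, in both HIF-1α KO libraries. The share over all 3750 such sites was 69.4%. LOXL2 −7.2 kb was called in neither WT and both HIF-1α KO libraries, at percentiles of 30.4 and 43.7. Of 42964 sites called in neither WT HIF-2α library, 724 (1.69%) were called in both HIF-1α KO libraries. The P4HA1 promoter was called in 1 WT library and both HIF-1α KO libraries. At LOXL2 +58.7 kb the HIF-2α percentiles were 98.9 and 98.7 in WT and 99.6 and 99.5 in HIF-1α KO cells, and at the PLOD2 promoter 77.6 and 92.5 in WT and 93.9 and 97.0 in HIF-1α KO cells. Both had higher percentiles in the 2 HIF-1α KO libraries than in the 2 WT libraries. The other way round, LOXL2 +47.9 kb had 92.3 and 92.3 in WT and 88.2 and 91.5 in HIF-1α KO cells, and LOXL2 −17.5 kb had 96.0 and 97.1 in WT and 93.6 and 95.6 in HIF-1α KO cells. No direction was common to these sites, and the HIF-2α lists held 4537 and 6749 peaks in WT and 5228 and 6540 in HIF-1α KO cells. The LOX promoter had percentiles of 71.3 and 68.2 in WT and 62.3 and 66.0 in HIF-1α KO cells.

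With HIF-1β, 8 sites were called in both WT libraries. All 8 were called in both HIF-1α KO libraries (47.4% over all 5046 sites), and 5 in both HIF-2α KO libraries (27.3%). The 5 were the P4HA1, PLOD2 and LOX promoters, LOXL2 +58.7 kb and LOXL2 +47.9 kb. PLOD2 −5.6 kb and LOXL2 −17.5 kb were called in 1 HIF-2α KO library each, at percentiles of 21.5 and 45.9, and PLOD2 −2.7 kb in neither. The HIF-1β lists of HIF-2α KO cells held 2550 and 2085 peaks against 6199 and 8279 in WT. Length therefore moved with these calls, and its part in them was not tested.

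Between lines, 6 RCC4 or HepG2 libraries were set against the 6 WT libraries of the knockout experiment. PLOD2 −5.6 kb was called in 0 of 6 RCC4, 0 of 6 HepG2 and 5 of 6 WT HKC8 libraries (exact permutation p = 0.0278 in each, adjusted p = 0.117 and 0.0959). It was also called in 0 of 6 HKC8 libraries of the severity and duration experiment, likewise in 0.5% oxygen for 16 h. The difference from WT was thus also present within HKC8, between experiments, and its cause was not tested. LOXL2 +40.8 kb was called in 5 of 6 HepG2 and 0 of 6 WT libraries (exact permutation p = 0.0278, adjusted p = 0.0959). The PLOD2 promoter was called in 6 of 6 in all 3 lines. The P4HA2 promoter was called in 4 of 6 RCC4 and 4 of 6 HepG2 libraries against 0 of 6 in WT HKC8. It was called in 4 of 6 HKC8 libraries of the severity and duration experiment that, like WT, were in 0.5% oxygen for 16 h. The HIF-1α percentiles of P4HA2 were 98.6 and 87.4 in RCC4 and 98.5 in 1 HepG2 library, with no call in the other, and the HIF-1β percentiles were 88.7 and 94.3 in RCC4 and 98.8 and 99.4 in HepG2. The P4HA2 counts of 4 of 6 and 0 of 6 thus also separated the HKC8 lists of the severity and duration experiment from those of WT HKC8. The difference was present within HKC8, between experiments, and its cause was not tested.

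Of the 18 sites 9 entered the exact test of RCC4 and 10 that of HepG2, and none passed, as was the case for all 4355 and 5590 sites (0% each, with 743 and 1607 at an unadjusted p under 0.05). With a smallest p of 0.00926, 807 and 1036 sites would have had to reach it before any could pass, and 312 and 817 did.

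A list of 20 other genes of collagen modification was examined in the same way. Of these, 13 had a site, 8 had one called in both replicates of a group and 7 had none. A site called in both replicates of a group was assigned to 18.5% of all protein-coding genes, and to 36.7% of those that span at least 75 kb. P4HB, the β subunit that pairs with P4HA1 and P4HA2, had a site 0.618 kb upstream of its TSS (chr17:79817339-79819952) called in 21 libraries, with HIF-1α in 8, HIF-2α in 1 and HIF-1β in 12. PLOD3, the third lysyl hydroxylase, had a promoter site called in 20 (HIF-1α 6, HIF-2α 6 and HIF-1β 8).

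Of the other 3 genes named by the same rule, P3H2, a prolyl 3-hydroxylase, had 10 sites, the leading one called in 15 libraries. TGM2, a transglutaminase that cross-links matrix proteins, had its leading site 18.96 kb upstream (chr20:36811584-36813445), called in 15 libraries with HIF-1α in 0, HIF-2α in 6 and HIF-1β in 9. The leading site of ADAMTS2, which removes the procollagen amino-terminal propeptide, was called in 12 with HIF-1α in 0, HIF-2α in 6 and HIF-1β in 6.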

How the data were processed

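The deposited files were 50 peak lists from human cell lines, 1 per ChIP library. The 16 input samples were not analysed as samples here. Per the submitters' processing notes and the study's methods, the authors trimmed reads with Trim Galore 0.3.3, aligned them to GRCh37 with BWA 0.7.5a-r405, filtered them with SAMtools 0.1.19 and bedtools 2.17.0, marked duplicates with Picard 1.106 and called peaks with MACS. The study's methods also name a second caller, T-PIC, and a filter against background. In all 50 deposited lists the peaks bear MACS names numbered without gaps, and whether that filter was applied to them is not given in the sources used here. The deposited score of each peak, taken as the scaled negative logarithm of its p-value and at least 50.0, was used only for ranks and limits within a list. Replicates were not pooled, and no pair of libraries had identical calls. A peak list carries no depth, so a site missing from a list may lie under the caller's limit.

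Peaks overlapping by at least 1 bp were merged and assigned by their median centre to GENCODE 44 genes lifted to GRCh37. 294 peaks on other sequences were left out. Groups followed the sample labels. Exact permutation tests, across all sites called in at least 4 of the libraries compared, were adjusted by the Benjamini-Hochberg method and tried on simulated calls. There, 100% of sites given a large change passed when HIF-1α was set against HIF-2α. In the severity and duration comparisons 73.4% to 75.8% passed, and between lines 0%. Replicates are separate libraries of a group, and libraries were the units whose labels were exchanged, within condition or within antibody. Each exact permutation p-value ranks the observed difference among those exchanges. Named were the leading site of each gene, each site called in both replicates of a group, and up to 5 of the 20 other genes. The genes, lists and tests were chosen with earlier results of these data known. Alternatives were a score of at least 100, lists of equal length, windows of 200 bp, percentiles as values, other assignment rules, single replicates, a replicate block and left-out libraries. Scripts ran in Python with numpy and pandas.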

Additional observations from a re-analysis of the deposited data

How the results depend on the processing

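Peak lists carry no signal at uncalled places, so a lost call and weak binding cannot be told apart. With HIF-1α against HIF-2α, where 0 sites passed, 2 passed with scores of at least 100, 92 with lists of equal length, 3 with windows of 200 bp, 182 with percentiles as values, 37 without HepG2, and 0 to 27 on leaving out each of the 28 libraries in turn, with 27 without HKC8 0.5% 48 h HIF-2α replicate 2 or HepG2 HIF-1α replicate 1. In the other 5 comparisons 0 passed under every alternative but 1, lists of equal length for HepG2 against WT HKC8 (627). The causes were not tested. P4HA2 kept its direction in all 37 alternatives, with adjusted p of 0.0407 to 1, and passed with lists of equal length (0.0407), without HepG2 (0.0472), without HepG2 HIF-1α replicate 1 (0.0408) and without HepG2 HIF-2α replicate 1 (0.0411). LOXL2 +58.7 kb kept its direction in all 37 and passed with lists of equal length (0.0481). For both sites 28 of the 37 alternatives left out 1 library, which could not reverse differences of this size.

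Calls reversed, in libraries, at PLOD2 to a lead of 1 for HIF-1α with scores of at least 100 and of 2 with lists of equal length, and at LOX to -1 with windows of 200 bp. For RCC4 against HKC8, LOX reversed to 1 with lists of equal length and, as LOXL2 +47.9 kb did, to 1 with the HKC8 libraries of the severity and duration experiment, an alternative added after seeing the data. For HepG2, LOXL2 +47.9 kb reversed to 2 with those libraries and LOXL2 +58.7 kb to 1 with windows of 200 bp.

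The 18 sites became 11 with scores of at least 100 and 29 with windows of 200 bp, and the 11 called in both replicates became 17 with those windows. Single replicates gave 147 to 149 peaks, since each setting drops 1 list of every group. The knockout counts stayed within 1.5 times their value at scores of at least 100, with windows of 200 bp and with single replicates, all added after seeing the data.

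Replicate numbers were not shown to pair the samples, since the correlation of replicate deviations between HIF-1α and HIF-2α exceeded 0.1 in 2 of 7 conditions (-0.483 to 0.217). With the replicate block 0 sites passed in each of the 6 comparisons, and P4HA2 had an adjusted p of 0.391.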
